A study of Mus musculus with 7 samples.

Results

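The genes described here encode transcription factors of 4 families that are tied to the loop of Henle and the distal nephron: the class III POU factors Pou3f2, Pou3f3 and Pou3f4, the AP-2 factors Tfap2a and Tfap2b, the zinc finger factor Mecom, and the PAS domain factors Sim1 and Sim2. They were chosen by symbol from the authors' deposited table of 16167 genes. Of the 8 names, 6 were found there and are reported, and Pou3f2 and Pou3f4 were not analysed here. RNA came from pairs of whole kidneys of mouse embryos at stage E15.5. The 4 mutant libraries (Six2-Cre; Irx3/5(loxP/loxP)) carried floxed alleles of the Iroquois genes Irx3 and Irx5 on both chromosomes together with Six2-Cre, a Cre recombinase that is active in nephron progenitors and not in the ureteric tree or stroma. The 3 control libraries (Irx3/5(loxP/+), called WT in their genotype label) were made from littermate embryos floxed on 1 chromosome, so every library carried at least 1 floxed allele. The control titles name no Cre, and effects of Six2-Cre itself and of the deletion cannot be told apart. The comparison asks how the RNA of the whole kidney differs when Irx3 and Irx5 are deleted in the nephron lineage.

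A nephron forms when progenitors of the cap mesenchyme turn into an epithelial vesicle, which is then divided along its length into podocytes, proximal tubule, loop of Henle and distal tubule, each under its own set of transcription factors. In the mouse, Pou3f3 (also called Brn1) is needed for the loop of Henle, the macula densa and the distal tubule. Tfap2b is needed for normal distal tubules, and mouse kidneys without it become cystic. Work in zebrafish has tied the relatives of Tfap2a, Mecom and Sim1 to the segments of the embryonic kidney tubule. Outside the kidney, Tfap2a acts in the neural crest, Mecom in blood stem cells, and Sim1 and Sim2 in the brain.

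Values are FPKM (fragments scaled to gene length and to the depth of each library) as the authors deposited them, given as mean ± SD with n = 4 mutants and n = 3 controls. Fold changes are differences of mean log2(FPKM + 1), mutant minus control, a scale that makes changes of weakly expressed genes look smaller, and a gene was called changed at a limma adjusted p under 0.05. Recovered read totals over the listed genes ran from 45539155 to 53497462 in mutant libraries and from 40511920 to 69028943 in control libraries. Irx3 averaged 5.73 ± 1.28 FPKM in mutants and 13.9 ± 1.07 FPKM in controls, and fell (log2 fold change -1.16, limma adjusted p = 0.0145). Irx5 averaged 1.53 ± 0.6 FPKM in mutants and 1.5 ± 0.123 FPKM in controls, and did not pass. Which exons are removed is not given, so reads from the remaining parts could still be counted. Mutant replicate 1 stood apart: its genes with long transcripts read low, with a Spearman correlation of -0.641 across genes between its deviation from each gene's mean and transcript length, against -0.189 to 0.365 in the other libraries. Skeletal muscle RNA was high in control replicate 1, where the listed muscle genes summed to 73.9 FPKM against 9.69 to 12 in all other libraries. Embryonic Hbb-y stood at 10.5% of adult Hbb-bs in mutant replicate 3 and at 1.34% to 3.45% in the other 6 libraries. Nothing in the labels says whether a library holds 1 embryo or several, so the tests here rest on the variation among these 7 libraries, which may be technical in part.

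The stretch of DNA before the start of a gene is where many regulators bind. Promoter sequences of 5 of the 6 genes were found in the RefSeq table for build GRCm38.p6, with 7 windows in all, since Tfap2a and Mecom have 2 each. The 250 bases before the start are shown for Pou3f3 and Tfap2b, because their RNA was lower in every mutant than in every control, and for Sim1, because its window alone among the 7 holds the Iroquois letters. Sequences run 5′ to 3′ on the gene's own strand, and capitals mark CCAAT boxes and the Iroquois letters ACANNTGT.
Pou3f3: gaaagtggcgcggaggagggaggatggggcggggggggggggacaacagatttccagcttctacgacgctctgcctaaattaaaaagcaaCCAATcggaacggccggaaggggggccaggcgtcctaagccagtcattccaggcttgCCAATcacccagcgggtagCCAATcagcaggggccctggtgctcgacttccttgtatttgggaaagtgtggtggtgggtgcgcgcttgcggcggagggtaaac
Tfap2b: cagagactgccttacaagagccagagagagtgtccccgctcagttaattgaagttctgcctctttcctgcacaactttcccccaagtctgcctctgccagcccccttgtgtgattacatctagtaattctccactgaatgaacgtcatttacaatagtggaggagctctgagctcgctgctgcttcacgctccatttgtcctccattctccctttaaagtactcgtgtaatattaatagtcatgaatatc
Sim1: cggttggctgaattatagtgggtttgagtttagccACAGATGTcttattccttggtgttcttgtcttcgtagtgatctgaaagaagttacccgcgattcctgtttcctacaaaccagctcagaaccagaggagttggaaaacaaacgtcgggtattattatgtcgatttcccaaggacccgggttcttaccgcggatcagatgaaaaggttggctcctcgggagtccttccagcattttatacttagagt
The windows lie at chr1:42695518-42695767 (Pou3f3, plus strand), chr1:19211804-19212053 (Tfap2b, plus strand) and chr10:50895401-50895650 (Sim1, plus strand).

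In these letters the Pou3f3 promoter differs from that of Tfap2b. The Pou3f3 window is rich in G and C (60.8%) with 15 CG pairs and has 3 CCAAT boxes, which begin 160, 103 and 84 bases before the start. CCAAT was searched on both strands after the sequence had been seen, and 2.79% of the 32851 windows in the table hold 3 or more. The Tfap2b window has 46.4% G and C with 5 CG pairs and no CCAAT box, and the median window has 52.4% with 6 pairs. The Iroquois letters ACANNTGT, which read the same on both strands, are in 6.31% of all windows. Among the 7 windows they occur once, in Sim1, beginning 215 bases before the start. The AP-2 letters GCCNNNGGC (in 13.7% of all windows), the octamer ATGCAAAT (1.6%) and the SIM core ACGTG (16.6%), each searched on both strands, were in none of the 7.

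Pou3f3 (ENSMUSG00000045515.5) was the member with the clearest difference. It stood at 12.5, 11.3, 11.4 and 13.2 FPKM in mutant replicates 1 to 4, against 18.6, 17.5 and 16.0 FPKM in control replicates 1 to 3. Every mutant lay below every control, with 2.75 FPKM between the highest mutant and the lowest control. Pou3f3 averaged 12.1 ± 0.926 FPKM in mutants and 17.4 ± 1.29 FPKM in controls, so mutants held 69.7% of the control mean. The log2 fold change was -0.49 (SE 0.079, 95% interval -0.67 to -0.31, limma adjusted p = 0.0308), which ranks 73 by p among the 13466 genes tested. A two-sided exact permutation test over the 7 libraries returned its smallest possible p, 0.0286. In the authors' deposited table the log2 fold change was -0.52 (SE 0.095, adjusted p = 6.48e-06). Pou3f3 rested on 4061 to 5255 reads in mutant libraries and 5081 to 10030 in control libraries, and the gene has no introns. The size of the difference varied little under the alternatives, from -0.54 to -0.44, but the call did not hold throughout: it was kept without mutant replicate 1 (limma adjusted p = 0.0239) and lost without mutant replicates 2, 3 and 4 (0.0777, 0.0574 and 0.0604) and without control replicates 1, 2 and 3 (0.152, 0.183 and 0.0569). With each library's trend on transcript length removed, an alternative chosen after seeing the data, the log2 fold change was -0.46 (limma adjusted p = 0.0581). In whole-kidney RNA, fewer cells of a type and less RNA per cell cannot be told apart.

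Tfap2b (ENSMUSG00000025927.14) had the next largest fold change, and whether it passed depended on the test. It stood at 5.93, 6.76, 6.09 and 6.87 FPKM in mutant replicates 1 to 4, against 9.80, 8.61 and 7.91 FPKM in control replicates 1 to 3. The groups did not overlap here either, with 1.03 FPKM between them. Tfap2b averaged 6.41 ± 0.473 FPKM in mutants and 8.77 ± 0.957 FPKM in controls, or 73.1% of the control mean. The log2 fold change of -0.40 (SE 0.088, 95% interval -0.59 to -0.20) missed the threshold in limma on FPKM (adjusted p = 0.0714), with an exact permutation p of 0.0286, two-sided. In the authors' deposited table it passed, with a log2 fold change of -0.45 (SE 0.11, adjusted p = 0.00156). It also passed with limma-voom on recovered counts (adjusted p = 0.0474, where 1.37% of genes were lower), with array weights (0.0134, where 6.45% were lower) and with the trend on transcript length removed (0.034, where 2.16% were lower). It missed the threshold in each of the 7 omissions of a library (limma adjusted p = 0.0632 to 0.268).

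**Figure D1:**
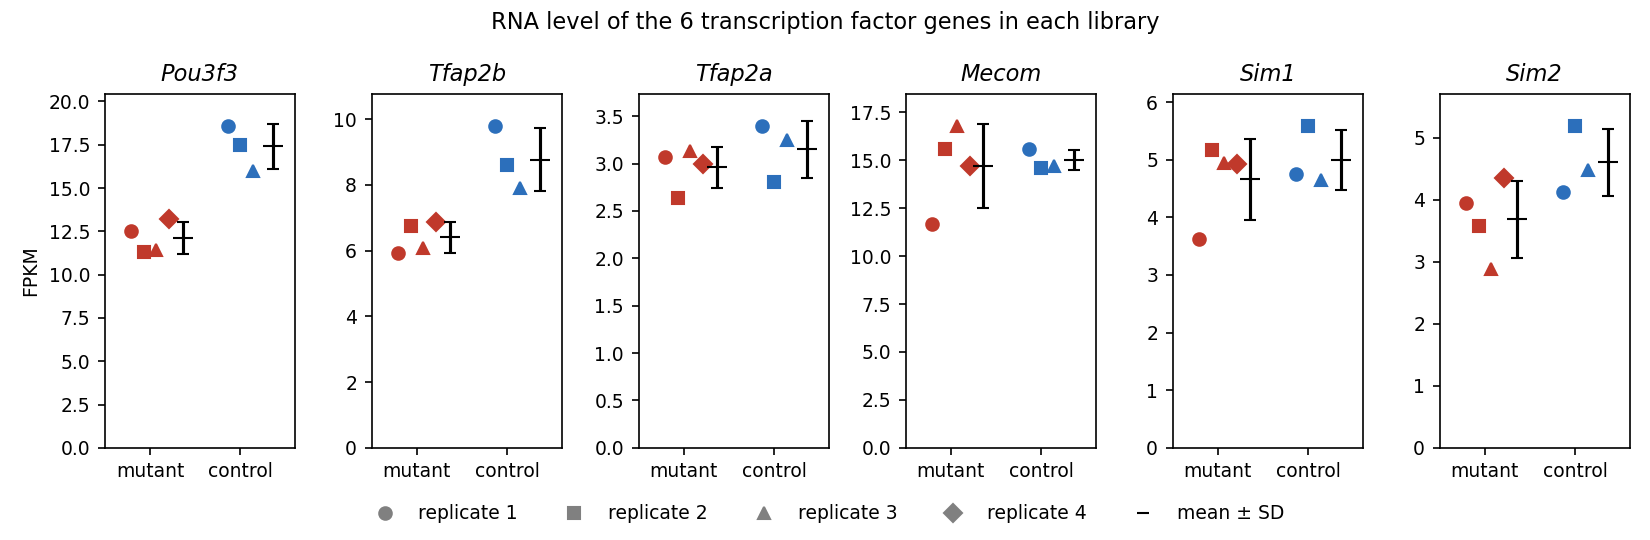
RNA level in FPKM (vertical axes, each from 0) of the 6 transcription factor genes in 4 mutant and 3 control libraries; symbols mark the replicate number and black bars the mean ± SD. The mutants lie below all controls for Pou3f3 (11.3 to 13.2 against 16.0 to 18.6 FPKM) and Tfap2b (5.93 to 6.87 against 7.91 to 9.80), and the groups overlap for the other 4 genes.

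Tfap2a (ENSMUSG00000021359.17), the AP-2 relative of Tfap2b, overlapped between the groups. It stood at 3.07, 2.64, 3.13 and 3.00 FPKM in mutant replicates 1 to 4, against 3.40, 2.81 and 3.25 FPKM in control replicates 1 to 3. Only mutant replicate 2 lay below the lowest control. Its log2 fold change of -0.07 (SE 0.085, 95% interval -0.26 to 0.13) did not pass (limma adjusted p = 0.842), and the authors' deposited table gives an adjusted p of 0.897. The ratio of Tfap2b to Tfap2a within a library was 1.93, 2.56, 1.94 and 2.29 in mutants, against 2.89, 3.06 and 2.43 in controls. The ratio of mutant replicate 2 lay above that of control replicate 3, and the exact permutation test of the log2 ratio gave p = 0.0857 (0.171 adjusted over the 2 pairs of relatives compared). These ratios were tested after the values had been seen, and they do not show that the AP-2 genes differ in their response.

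Mecom (ENSMUSG00000027684.17), a zinc finger gene also used in blood stem cells, overlapped between the groups. It stood at 11.7, 15.6, 16.8 and 14.7 FPKM in mutant replicates 1 to 4, against 15.6, 14.6 and 14.7 FPKM in control replicates 1 to 3. The highest and the lowest value both came from mutants, and the lowest was that of replicate 1, the library with low values of long transcripts. The longest transcript in the GENCODE M21 annotation has 5692 bases for Mecom, 5863 for Tfap2b, 7355 for Sim1 and 7409 for Pou3f3. Mecom, Tfap2b and Sim1 had their lowest values in that library (11.7, 5.93 and 3.62 FPKM), and Pou3f3 did not. With each library's trend on transcript length removed, Mecom had a log2 fold change of -0.02 (limma adjusted p = 0.93) and Sim1 of -0.06 (0.799). The part of transcript length in the values of mutant replicate 1 was not tested. Mecom averaged 14.7 ± 2.19 FPKM in mutants and 15 ± 0.524 FPKM in controls. Its log2 fold change was -0.03 (SE 0.11, 95% interval -0.28 to 0.21, limma adjusted p = 0.953), and without mutant replicate 1 it was 0.07 (limma adjusted p = 0.637).

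Sim1 (ENSMUSG00000019913.5), best known for its part in the hypothalamus, showed the same low library. It stood at 3.62, 5.16, 4.94 and 4.93 FPKM in mutant replicates 1 to 4, against 4.75, 5.59 and 4.65 FPKM in control replicates 1 to 3. Mutant replicates 2 to 4 lay within the range of the controls and replicate 1 below it. The log2 fold change was -0.09 (SE 0.11, 95% interval -0.35 to 0.17, limma adjusted p = 0.847), and without mutant replicate 1 it was 0.01 (limma adjusted p = 0.98).

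Sim2 (ENSMUSG00000062713.9), the closest relative of Sim1, did not pass, with most mutants at the low end. It stood at 3.94, 3.58, 2.88 and 4.34 FPKM in mutant replicates 1 to 4, against 4.12, 5.19 and 4.48 FPKM in control replicates 1 to 3. In 3 of the 4 mutants the value lay below the lowest control, and replicate 4 lay between controls. Sim2 averaged 3.68 ± 0.622 FPKM in mutants and 4.6 ± 0.543 FPKM in controls, a log2 fold change of -0.26 (SE 0.12, 95% interval -0.53 to 0.01, limma adjusted p = 0.385). The exact permutation p was 0.114, and the authors' deposited table gives an adjusted p of 0.325. Its ratio to Sim1 was 1.09, 0.693, 0.583 and 0.881 in mutants, against 0.868, 0.928 and 0.963 in controls, with an exact permutation p of 0.40 (0.40 adjusted over the 2 pairs).

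Of the 6 genes, 1 fell, 0 rose and 5 did not pass, beside 1.53% of all 13466 genes called in either direction and 1.05% called lower. All 6 fold changes were below 0, as were 50.8% of those of all genes tested, and their median was -0.18. The groups did not overlap for 2 of the 6, both lower, beside 8.61% of all genes tested that were apart and lower and 14.5% that were apart in either direction. At an adjusted p under 0.05, 2 of the 6 were lower in the authors' deposited table, beside 3.74% of its 16153 genes with a p-value that were lower and 5.49% that changed in either direction. All 6 passed the filter on low values through mutants and controls alike, since the lowest value of any of them in any library was 2.64 FPKM.

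**Figure D2:**
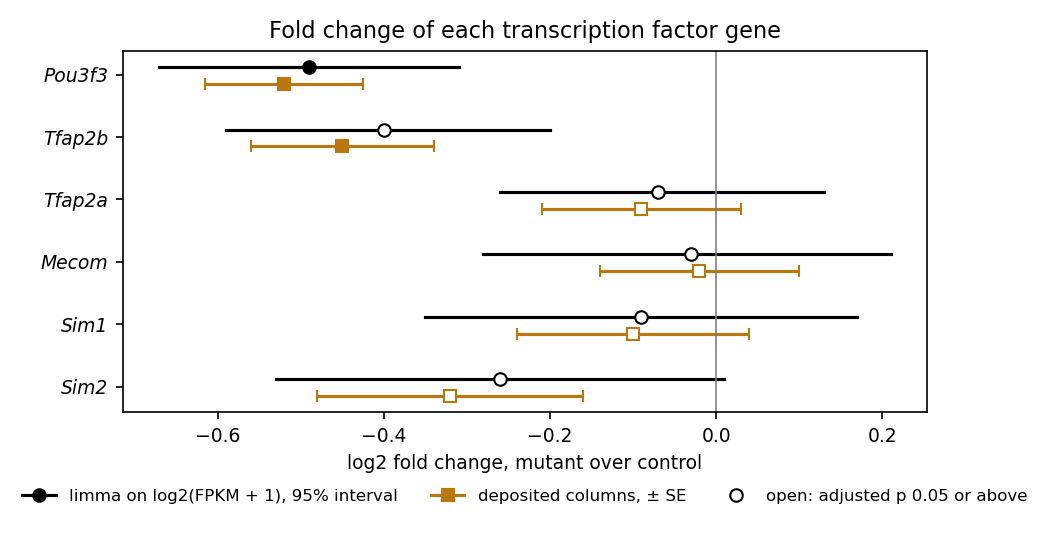
Log2 fold change, mutant over control, of the 6 genes: circles with 95% intervals are from limma on log2(FPKM + 1), squares with standard errors from the authors' deposited table, and open symbols did not reach an adjusted p under 0.05. The limma interval lies below 0 for Pou3f3 (-0.67 to -0.31) and Tfap2b (-0.59 to -0.20) and holds 0 for the other 4.

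FPKM is a level per length of gene, and the members were ranked against each other by it. The order depends on the gene length used, whose definition is not given in the sources used here. In recovered reads, Mecom was above Pou3f3 in control replicates 1 to 3 (10342, 8315 and 5739 against 10030, 8113 and 5081). In controls the order by mean FPKM was Pou3f3 (17.4), Mecom (15), Tfap2b (8.77), Sim1 (5.00), Sim2 (4.6) and Tfap2a (3.15). Ranges of neighbours in this order were apart in controls except those of Sim1 and Sim2. In mutants Mecom (14.7) was above Pou3f3 (12.1) on average, and by FPKM Pou3f3 was the higher of the pair in 1 of 4 mutants and in 3 of 3 controls. The mutant ranges of that pair overlapped, as did those of Sim1 and Sim2 and those of Sim2 and Tfap2a. Over all libraries Pou3f3 and Mecom lay at percentiles 69.3 and 70.2 of mean FPKM among the listed genes and Tfap2a, the lowest, at 33.2.

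The loop of Henle genes that build the segment's transport machinery were set beside Pou3f3. Of 18 named, 16 were listed and 12 passed the filter on low values; 2 fell, 0 rose and 10 did not pass, with a median log2 fold change of -0.91 against 0.00 over all genes tested. All 12 fold changes were below 0, and 1 of the 12 passed the filter with fewer than 3 mutant libraries at the minimum of 1 FPKM. Bsnd, a subunit of chloride channels, averaged 1.30 ± 0.632 FPKM in mutants and 3.83 ± 0.222 FPKM in controls (log2 fold change -1.11, SE 0.19, limma adjusted p = 0.0380). Cldn16, a claudin of the thick ascending limb, averaged 1.25 ± 0.442 FPKM in mutants and 3.12 ± 0.223 FPKM in controls (log2 fold change -0.89, SE 0.15, limma adjusted p = 0.0337). Slc12a1, the salt transporter that defines the segment, averaged 7.64 ± 3.49 FPKM in mutants and 20.4 ± 2.70 FPKM in controls but did not pass (limma adjusted p = 0.111). Both calls were lost without any 1 of the 3 controls, without mutant replicate 2 and without mutant replicate 4. In other settings more loop genes passed: 5 without mutant replicate 1, 8 with the globin ratio as a covariate and 10 with array weights. Over all genes, 486, 273 and 1302 were called in these settings in turn, against 206 as first tested. With a pseudocount of 0.1 FPKM or a minimum of 5 FPKM, 0 passed in limma, and 6 were lower in the authors' deposited table.

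Library by library, the loop list and Pou3f3 did not keep the same order. Relative to the control mean, the loop list stood at -0.41, -0.72, -1.40 and -0.88 in the 4 mutants, replicates 1 to 4 in turn, as log2(FPKM + 1), a range of 0.99. Pou3f3 stood at -0.45, -0.58, -0.56 and -0.36 in the same libraries, a range of 0.22, and Tfap2b at -0.49, -0.33, -0.46 and -0.31, a range of 0.18. The loop list and the proximal tubule list (-0.49, -0.79, -1.51 and -0.95) were lowest in mutant replicate 3, the library with the highest share of embryonic globin, where Sim2 was also lowest (-0.53). With the log2 ratio of Hbb-y to Hbb-bs as a covariate, Pou3f3 had a log2 fold change of -0.46 (limma adjusted p = 0.0323). The nephron progenitor list stood at -0.62, -0.71, -0.53 and -0.56 in the mutants. This mean of 10 genes includes Cited1 and Uncx, with log2 fold changes of -1.99 and -1.98. The list median was -0.36, with 8 fold changes below 0 and 2 above.

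**Figure D3:**
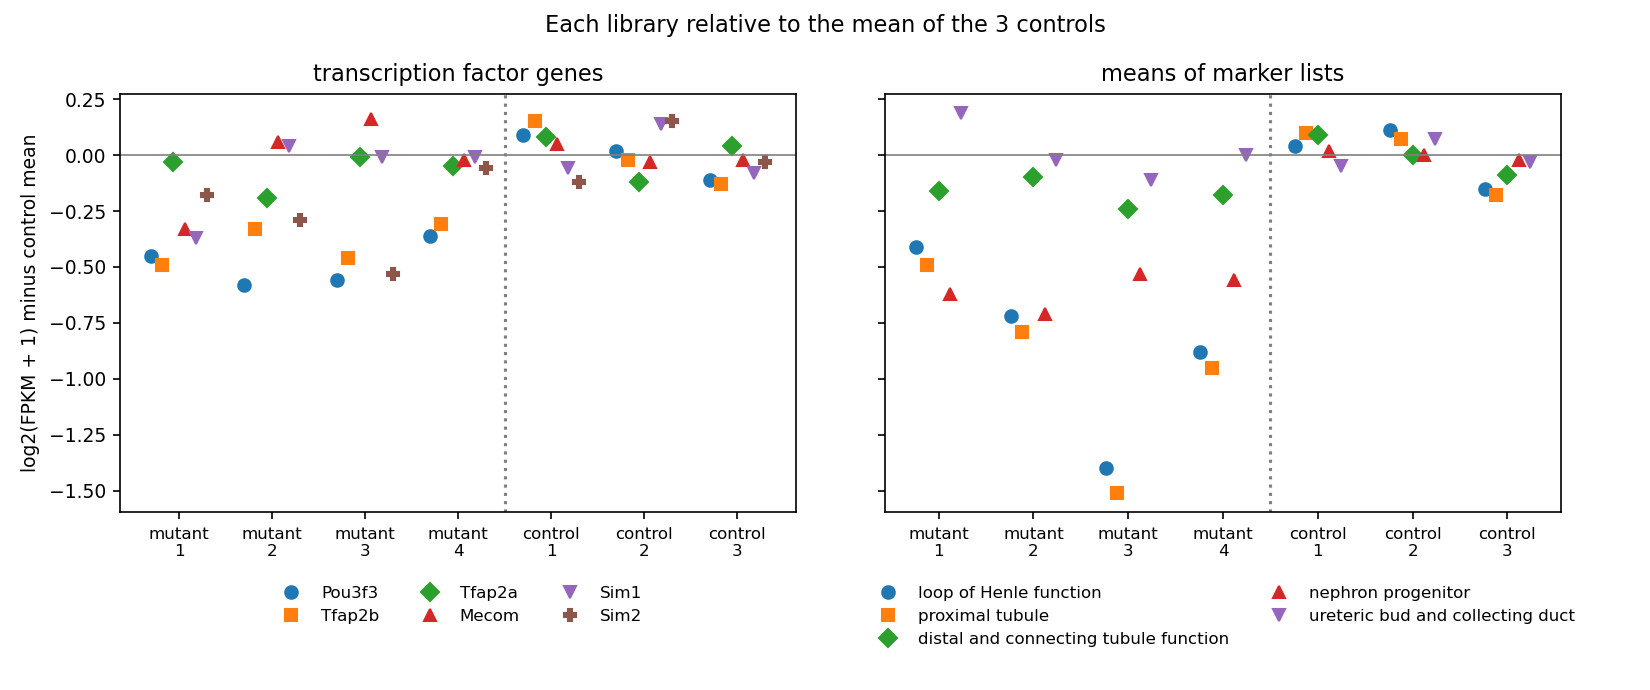
Log2(FPKM + 1) of each library minus the mean of the 3 controls, for the 6 transcription factor genes (left) and for means of 5 marker lists (right); mutants stand left of the dotted line in each panel. Pou3f3 and Tfap2b lie between -0.58 and -0.31 in all 4 mutants, whereas the loop of Henle mean runs from -0.41 to -1.40.

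Distal and connecting tubule genes had 11 of 14 fold changes below 0, and the 2 that passed differed in direction. Of the 14, Klk1 passed the filter on low values through the controls alone, and its sign follows from that. It stood at 0.0228 to 0.739 FPKM in mutants and 1.17 to 1.27 FPKM in controls. Of 18 named, 17 were listed and 14 passed the filter; 1 fell, 1 rose and 12 did not pass, with a median log2 fold change of -0.14, while 4 were lower and 1 higher in the authors' deposited table. Kcnj10, a potassium channel of the distal convoluted tubule, averaged 1.03 ± 0.0471 FPKM in mutants and 1.97 ± 0.368 FPKM in controls (log2 fold change -0.54, SE 0.097, limma adjusted p = 0.0398). Calb1, a calcium-binding protein of distal tubule and of the ureteric tree, averaged 71.6 ± 5.43 FPKM in mutants and 43.1 ± 8.89 FPKM in controls and rose (log2 fold change 0.73, SE 0.12, limma adjusted p = 0.0325). The transporter that marks the distal convoluted tubule, Slc12a3, was below the filter, at 0.191 ± 0.117 FPKM in mutants and 1.22 ± 0.552 FPKM in controls. It was named after its values were seen, and the authors' deposited table gives it an adjusted p of 1.1e-07. The call of Kcnj10 was lost in every omission of a library except that of mutant replicate 1, and that of Calb1 in every omission except those of mutant replicate 1 and control replicate 3.

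Among other transcription factors of nephron segments, 27 of 29 passed the filter. Of these, 4 fell, 1 rose and 22 did not pass, with a median log2 fold change of -0.33. For 1 of the 27, fewer than 3 mutant libraries reached the minimum of 1 FPKM. Besides the deleted Irx3, those that fell include Wt1, which acts in progenitors and podocytes, and Pax2, which acts in progenitors and early epithelium. Wt1 averaged 41.9 ± 0.946 FPKM in mutants and 56.1 ± 1.81 FPKM in controls (log2 fold change -0.41, SE 0.056, limma adjusted p = 0.0156) and Pax2 had -0.57 (SE 0.11, adjusted p = 0.0495). Elf3, an epithelial factor of the ETS family, averaged 13.4 ± 0.686 FPKM in mutants and 8.85 ± 0.838 FPKM in controls and rose (log2 fold change 0.55, SE 0.077, limma adjusted p = 0.0175). Irx1 and Irx2, which are expressed in the loop region with Irx3, had log2 fold changes of -0.66 and -0.68 and did not pass (limma adjusted p = 0.182 and 0.0831). Both passed in the authors' deposited table, at adjusted p of 0.029 and 0.0044, where 11 genes of the list were lower and 2 higher. Leaving out mutant replicates 1 to 4 in turn gave counts of 4, 1, 4 and 2 lower genes, and leaving out control replicates 1 to 3 gave 0, 0 and 3.

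Genes of proteins that work with or against the members mostly did not pass. Of these, 11 were tested: 1 fell and 10 did not pass, with a median log2 fold change of -0.06. The gene that fell was Cited1, a coregulator of the least committed progenitors, at 5.25 ± 0.741 FPKM in mutants and 23.8 ± 1.07 FPKM in controls. Arnt and Arnt2, whose proteins pair with SIM factors, had log2 fold changes of 0.17 (limma adjusted p = 0.358) and -0.06 (0.883). Kctd1 and Kctd15, inhibitors of AP-2 factors, had -0.13 (0.498) and -0.04 (0.888), and Cited2, a coactivator of AP-2, had -0.28 (0.356). The corepressor genes Ctbp1 and Ctbp2, whose proteins bind MECOM, stood at -0.04 and 0.03, and Sox4 and Sox11, possible partners of class III POU factors, at 0.03 and -0.09. Of the relatives outside the list, 4 passed the filter and limma called 0 of them; 0 had an unadjusted p under 0.05, and 0 passed in the authors' deposited table. They include Pou3f1, at 0.913 ± 0.359 FPKM in mutants and 1.17 ± 0.268 FPKM in controls, and Prdm16, at 3.14 ± 0.605 FPKM in mutants and 3.57 ± 0.230 FPKM in controls.

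**Figure D4:**
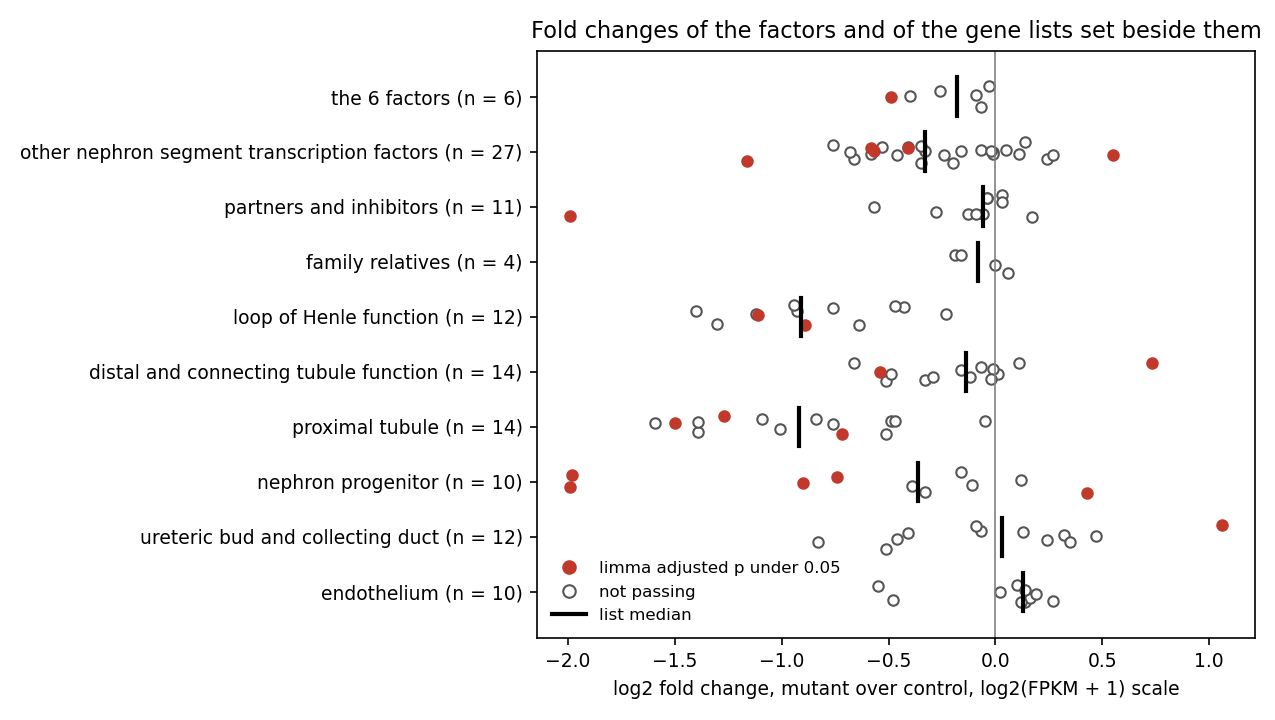
Log2 fold change, mutant over control (horizontal axis), of each gene that passed the filter, by list; filled points passed limma at an adjusted p under 0.05, open points did not, and black bars are list medians. The 6 factors have a median of -0.18, against -0.91 for loop of Henle genes and -0.92 for proximal tubule genes.

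The members are also expressed outside the distal nephron, so other cell types were measured beside them. The ureteric and collecting duct list summed to 235 to 279 FPKM in mutants and 215 to 228 FPKM in controls, and 1 of its 12 genes was called, which rose. Of the 12 genes, 8 had an unadjusted limma p under 0.05, and 3 of the 8 were lower in mutants. The groups did not overlap for 5 genes that were higher and 2 that were lower. Likewise, 5 genes were higher and 2 lower at an adjusted p under 0.05 in the authors' deposited table. The endothelial list summed to 190 to 206 FPKM in mutants and 182 to 193 FPKM in controls. For neurons, glia and neural crest, where AP-2, POU and SIM genes are also active, 5 of 12 markers were listed and summed to 4.63 to 9.26 FPKM in mutants and 6.14 to 12.2 FPKM in controls. The 12.2 FPKM was that of control replicate 1, and control replicates 2 and 3 stood at 6.14 and 6.46 FPKM. The defining markers Sox10 and Foxd3 were not analysed here. Of that list 2 genes passed the filter and 1 fell, Elavl4, at 1.1 ± 0.109 FPKM in mutants and 2.08 ± 0.237 FPKM in controls. The other, Stmn2, had a log2 fold change of 0.05 and did not pass (limma adjusted p = 0.976). The part of these cells in the levels of Pou3f3 and Tfap2b was not tested.

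Lists of further cell types were read from the same fit, where 13.7% of all 13466 genes had an unadjusted p under 0.05 in either direction. Of 14 proximal tubule genes tested, 3 fell (Apom, Slc22a6 and Slc3a1) and 13 were lower at an unadjusted p under 0.05. In the authors' deposited table, 10 of the 16 listed were lower. Of 8 podocyte genes, 3 fell (Nphs1 among them), 7 were lower at an unadjusted p under 0.05, and 7 were lower in the authors' deposited table. All fold changes of both lists were below 0. Of 10 progenitor genes, 4 fell and 1 rose, with Crym, a thyroid hormone-binding protein, the one that rose, at a log2 fold change of 0.43. Of 10 stromal genes, 2 rose, Aldh1a2 and Ntn1, with a list median of 0.40. Limma called 0 of 7 macrophage genes (3 had an unadjusted p under 0.05, and 1 was higher in the authors' deposited table), 0 of 10 endothelial genes (3 and 0) and 0 of 3 skeletal muscle genes (0 and 0). The tested adrenal gene, Mc2r, rose, with a log2 fold change of 0.48 (limma adjusted p = 0.0472). Among the genes outside the 6 factors named as changed, Cited1 kept its call whichever library was left out; each of the others followed, which leaves aside Pax2, lost it when control replicate 1 and when control replicate 2 was left out. Mc2r and Ntn1 lost it in each of the 7 omissions (limma adjusted p = 0.0514 to 0.212 and 0.0536 to 0.212).

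Genes with a profile like that of Pou3f3 were sought by the root mean square difference of log2(FPKM + 1) over the 7 libraries, each gene centred on its own mean. The nearest was C1ql1, which encodes a secreted protein of the C1q family, at 0.0205. It stood at 2.43, 2.23, 2.11 and 2.62 FPKM in mutant replicates 1 to 4, against 3.95, 3.69 and 3.32 FPKM in control replicates 1 to 3, with the groups apart. Next came Trabd2b, a membrane protease that inactivates Wnt proteins, at 0.0652, then Wt1 (0.0687), Kcnj10 (0.0757) and Papln, a matrix protein gene, at 0.0833. The measure carries no test, and a gene chosen for likeness to Pou3f3 will tend to have its groups apart too. On this scale changes of weakly expressed genes look smaller. In the authors' deposited table the log2 fold change was -0.64 for C1ql1, -0.52 for Trabd2b, -0.42 for Wt1, -0.93 for Kcnj10 and -1.03 for Papln. That of Pou3f3 was -0.52.

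The genes next to the members on the chromosome, by name in GENCODE M21, were looked up after the values had been seen. Pou3f3 lies between Pantr1 and Pantr2, noncoding genes on the opposite strand. Pantr1 stood at 1.63, 1.1, 1.22 and 1.19 FPKM in mutants, against 1.39, 1.5 and 1.77 FPKM in controls, and did not pass (log2 fold change -0.16, SE 0.10, limma adjusted p = 0.590). Pantr2 likewise did not pass (-0.15, SE 0.10, adjusted p = 0.606). The nearest listed genes of Tfap2b are Crispld1 and Pkhd1. Crispld1, which encodes a secreted protein, stood at 4.40, 5.22, 5.21 and 4.40 FPKM in mutants, against 2.52, 2.45 and 2.50 FPKM in controls. It rose (log2 fold change 0.73, SE 0.083, limma adjusted p = 0.00794), with the 2 groups apart. Pkhd1, the gene mutated in recessive polycystic kidney disease, stood at 0.835, 1.31, 1.15 and 1.12 FPKM in mutants, against 1.84, 1.45 and 1.20 FPKM in controls, and did not pass (limma adjusted p = 0.412). The tested neighbours of the other 4 members did not pass, among them Ascc3 beside Sim1, which was lowest in mutant replicate 1 (3.64 FPKM, against 4.72 to 5.24 in the other mutants). No annotated gene that overlaps a member is listed in the table. In the annotation 1 gene overlaps Pou3f3, on the same strand, and 3 overlap Tfap2a, all on the opposite strand. Mecom is overlapped by 7, of which 2 are on the opposite strand. The strand setting of the authors' counting is not given in the sources used here, so reads of opposite-strand genes could have been counted as those of Tfap2a and Mecom. The part of overlapping genes on the same strand in the counts of Pou3f3 and Mecom was not tested.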

How the data were processed

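Libraries were strand-specific (NEB Ultra II Directional), per the labels' protocols. The submitters' processing notes name STAR 2.6.0c, HTSeq 0.6.1p2, DESeq2, Trim Galore 0.5.0 and FastQC 0.11.5, with build mm39; how gene length was defined for FPKM is not given in the sources used here. The authors deposited 1 table with FPKM per library and DESeq2 columns: a signal (the mean of normalized counts), the log2 fold change with its error, a score (the test statistic) and the p-value. These columns were copied and not recomputed. The lowest deposited mean count was 18.5, and 14 genes have no p-value.

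The 13466 genes that reached 1 FPKM in 3 or more libraries were tested, and 2701 were not. Their log2(FPKM + 1) values went into limma 3.58.1 under R 4.3.3, with moderated variances (trend and robust options), two-sided tests and Benjamini-Hochberg adjustment over all of them. Exact permutation tests used the absolute difference of means. Read counts were recovered from the deposited mean count, FPKM and a size factor per library; 100% of values came within 0.05 of a whole number. Depth is the sum of these counts, and FPKM stayed the unit of the main test. The test was checked on simulated counts for 13434 genes, of which 200 were changed: 58% of those changed by 1.5 fold and 98% by 2 fold were recovered. Transcript lengths came from GENCODE M21, which is on another build. Its gene positions and strands served to find neighbours and overlapping genes, and no coordinates from it are printed. Promoters came from RefSeq.

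Members and lists were chosen with earlier results of these data known. Genes named were all members, Irx3 and Irx5, up to 4 called genes of each list by smallest p (or the 2 of smallest p), the 5 genes most like the member of smallest p, and, added later, neighbours; a few further list genes were named after their values were seen, and some genes the rule names are not reported here. Python 3.11.15, numpy 2.4.6, pandas 2.3.3, scipy 1.17.1 and matplotlib 3.10.9 were used.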

Additional observations from a re-analysis of the deposited data

Results flagged for a closer look

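Sim1 in mutant replicate 1, at 3.62 FPKM, stood far from the other 3 mutants, which lay at 4.93 to 5.16 FPKM. The gap to the nearest of them made up 0.846 of the range of the mutant group, above Dixon's critical value for 4 samples. Chance alone passes that limit in about 1 of 20 groups, and 8 genes were examined in this way. The same library had low values of long transcripts, and the part of this in the Sim1 value was not tested.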

How the results depend on the processing

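Of the 6 factors, 1 was called as first tested. The count was 2 with array weights, with the authors' deposited adjusted p and with limma-voom on recovered counts (Pou3f3 and Tfap2b in each), and 0 to 1 when 1 library was left out. With the trend on transcript length removed it was 1, Tfap2b. Over all genes 206 were called. There were 109 with a pseudocount of 0.1 FPKM, 60 with a minimum of 5 FPKM, 1302 with array weights, 886 in the authors' deposited table, 416 with the length trend removed, and 11 to 486 when 1 library was left out. Pou3f3 passed in 11 of 19 alternatives and Tfap2b in 4 of 19, and neither changed sign. Fold changes that changed sign were far from the threshold: Mecom was at 0.01 with array weights and -0.1 to 0.07 when 1 library was left out, and Sim1 at -0.13 to 0.01. Irx5 was at 0.03 with quantile normalization and in the deposited columns, 0.06 with array weights, 0.02 with the globin covariate, and -0.12 to 0.11 when 1 library was left out. With 1 library left out, Ascc3 ran from -0.01 to 0.14 and Hlcs from -0.1 to 0.02, and Hlcs was at 0.02 with quantile normalization. Where these counts moved, the cause was not tested.

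The labels do not say whether replicate numbers pair the libraries, and the main test did not treat them as pairs. Same-numbered deviations correlated at -0.156, 0.0276 and 0.098 across genes, against -0.253 to 0.123 for different numbers. These values cannot decide whether the libraries are paired. With the replicate block, which leaves mutant replicate 4 without a control of its number, 2 genes were called in all, 0 of the loop of Henle genes and 0 of the 6 factors (Pou3f3 at -0.53, limma adjusted p = 0.136). In simulated data, 58% of genes changed by 1.5 fold were recovered, so changes of that size can be missed. The simulated counts had an assumed spread and none of the library differences in length trend, muscle RNA or globin. Recovery in these libraries may therefore differ.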
